A study of Homo sapiens with 6 samples.

Results

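The AP-1 and immediate early factors are 10 genes, Fos, Fosb, Fosl1, Fosl2, Jun, Junb, Jund, Batf, Egr1 and Atf3, which were picked by name from the 22413 mouse genes in the deposited expression table. All 10 were listed, each with 1 Ensembl identifier. They were followed in BaF3-T315I, a murine hematopoietic line stably transfected with BCR-ABL that carries the T315I mutation, a change in the kinase domain that makes the oncoprotein resistant to imatinib. Every sample shares this transfected background. The 3 control samples are labelled only as control, and neither their vehicle nor their time in culture is stated. The other 3 samples received I13 (1.1 µM, 48 h), an indole-3-butyric acid derivative that inhibits histone deacetylases (HDACs). The labels do not say whether the 3 samples of a group were separate cultures, so the p-values measure the spread between these samples only. GEO's organism label and genome build are human, whereas the gene identifiers and symbols are those of mouse, and the values were read as mouse genes.

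AP-1 is not 1 protein but a family of dimers. Jun proteins pair with each other, with Fos proteins or with Batf and ATF proteins through a basic region and a leucine zipper (bZIP), and Fos proteins need a Jun partner to bind DNA. Fos, Egr1 and their relatives are called immediate early genes because their transcription starts within minutes of a growth or stress signal without new protein synthesis, through kinases of the MAPK cascades and factors such as SRF and the ternary complex factors. Their transcripts are short-lived, so a level in growing cells reflects continuing synthesis. In mice, loss of Junb in the myeloid lineage gives a disease that resembles chronic myeloid leukemia.

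Expression was given as FPKM, fragment counts corrected for gene length and sequencing depth, so levels can be compared approximately between genes and between samples. The FPKM of all genes summed to 345115 to 367952 in the 6 samples. Each library held 16762119 to 17722950 fragments. The cells expressed the IL-3 receptor genes Csf2rb (239 to 839 FPKM over the 6 samples) and Il3ra (9.07 to 18.2 FPKM), whereas the pre-B cell genes Ebf1, Igll1 and Vpreb1 did not exceed 0.107 FPKM in any sample. The B cell receptor genes Cd79a (14.1 to 27.5 FPKM) and Cd79b (3.57 to 6.94 FPKM) were expressed. The 11 listed genes of 12 that mark the line summed to 678 to 1169 FPKM in the controls and 1113 to 1931 FPKM after I13. Csf2rb and its paralog Csf2rb2 were called higher with the replicate number as a block in limma (adjusted p 0.0313 and 0.0312). Without the block neither was called (limma adjusted p 0.22 and 0.165). The share called with the block was 25% of the 8 line markers tested, against 1.36% of all genes called higher. The means of Csf2rb and Csf2rb2 were 329 and 286 FPKM in the controls and 588 and 572 FPKM after I13, so they weigh heavily in that sum. Of the 8 line markers tested, 6 had a log2 fold change above 0, beside 49.2% of all genes. Gata2 (mean 205.5 FPKM in the controls and 176.4 FPKM after I13) and Cd79b (log2 fold change -0.15) went the other way. Of 19 markers of other cell types, 11 were listed and 4 reached a mean of 0.5 FPKM. The summed level of the listed markers was 54.0 to 83.2 FPKM in the controls and 92.0 to 125 FPKM after I13. Most of that sum was Pecam1 and Adgre1, and Col1a1, Cd3e, Cd3g, Cd8a, Csf1r, Cdh5 and Alb were at or near 0. In the fit with the block, Adgre1 (F4/80, a macrophage surface protein) and Hba-a1 (alpha globin) passed both thresholds, with log2 fold changes of 1.05 and 2.40. Without the block neither was called (limma adjusted p 0.18 and 0.116). The 2 are 50% of the 4 tested, against 1.36% of all genes called higher. Hba-a1 was low, with 28 fragments in the controls and 151 after I13. Hbb-bt (beta globin) was not called with the block (limma adjusted p 0.208) but was with the block and voom (0.0201). Of its 57 fragments after I13, 54 were in replicate 2. The part of these markers in the results on the AP-1 genes was not tested. In bulk samples, fewer cells of a type and less RNA per cell cannot be told apart.

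The 10 genes covered a wide range of levels, and their order was led by Junb and Batf. Over all 6 samples the mean was 28.0 FPKM for Junb, 15.4 FPKM for Batf, 6.53 FPKM for Fosl1 and 4.99 FPKM for Fosl2. Fos and Jun, the founding members, followed at 1.49 and 1.11 FPKM. The last 4 genes lay below 0.5 FPKM, with means of 0.332 FPKM for Jund, 0.264 FPKM for Fosb, 0.0529 FPKM for Egr1 and 0.00442 FPKM for Atf3. Junb stood above 90.6% of all listed genes and Egr1 above 22.8%. Among the controls, the ranges of Junb and Batf, of Fosl1 and Fosl2, of Fos and Jun, of Jun and Jund, and of Jund and Fosb overlapped, so the order within those pairs is not larger than the spread there. After I13 the ranges of Junb and Batf (23.2 FPKM and above against 21.7 FPKM and below) and of Jun and Jund (0.836 against 0.753 FPKM) were apart, and those of the other 3 pairs overlapped. The ranges of Batf and Fosl1, of Fosl2 and Fos, and of Fosb and Egr1 were apart in both groups.

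**Figure D1:**
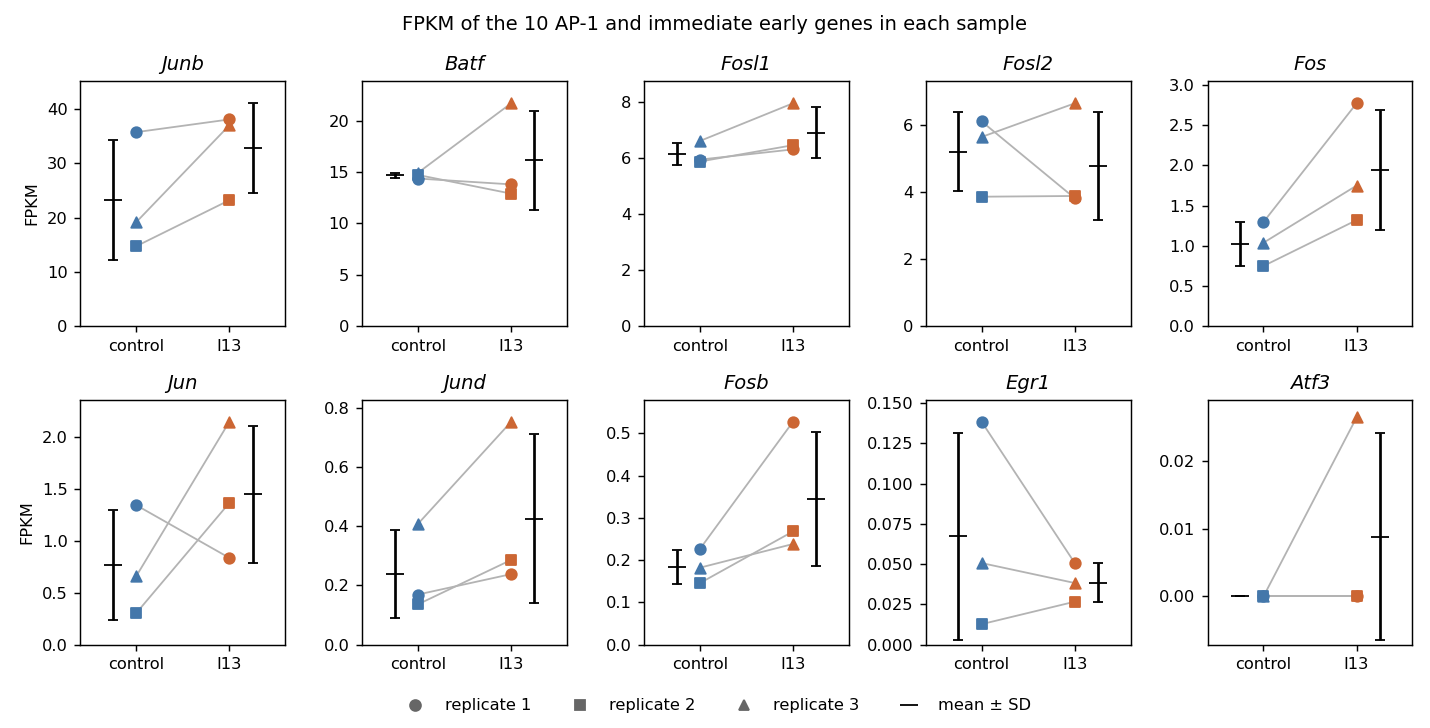
FPKM (vertical axes, linear, each gene on its own scale) of the 10 genes in the control and I13 samples, with grey lines joining samples of the same replicate number and bars showing the mean ± SD of 3 samples. Only Fos and Fosb have every I13 sample above every control, and Atf3 rests on a single fragment in I13 replicate 3.

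Among the Fos family genes, the mean transcript level of Fos itself was about 1.90 times as high after I13. Fos had 1.30, 0.747 and 1.04 FPKM in control replicates 1, 2 and 3 and 2.77, 1.32 and 1.75 FPKM in I13 replicates 1, 2 and 3. The lowest I13 sample lay just above the highest control, so the groups did not overlap, and all 3 same-numbered pairs were higher after I13. The means were 1.03 ± 0.274 and 1.95 ± 0.748 FPKM (SD, n = 3 each). On the log2(FPKM + 0.1) scale, which understates the change of low genes, the log2 fold change was 0.83 (standard error, SE, 0.32, 95% interval 0.082 to 1.58). The unadjusted p from limma was 0.034 and the adjusted p over all genes tested was 0.229, so the difference did not pass the test. With the replicate block the adjusted p from limma was 0.0706, and with the block and voom, limma's method for fragment counts, it was 0.0295 at a log2 fold change of 0.91, which passed. Behind these values stand 128 fragments in the controls (exact Poisson 95% interval 107 to 152) and 239 after I13 (210 to 271), and such intervals cover counting error only. Without I13 replicate 1, the highest sample, the log2 fold change was 0.55.

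Fosb, the close relative of Fos, showed the same arrangement at a much lower level. It had 0.226, 0.145 and 0.182 FPKM in the controls and 0.527, 0.268 and 0.238 FPKM after I13. The I13 samples were all above the controls, by little in replicate 3 and most in replicate 1, which was also the highest I13 sample for Fos. The fragments numbered 61 in the controls (exact Poisson 95% interval 46.7 to 78.4) and 112 after I13 (92.2 to 135). Since its mean was below 0.5 FPKM, Fosb was not in the fit over all genes. A two-sided exact permutation test of the 3 I13 samples against the 3 controls gave p = 0.1, the smallest value that this design can give. When every listed gene was tested without the filter, its log2 fold change was 0.60 with an adjusted p from limma of 0.545.

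Fosl1 and Fosl2, which encode the Fos-related antigens Fra-1 and Fra-2, were the most abundant Fos family transcripts. Fosl1 had 5.95, 5.88 and 6.62 FPKM in the controls and 6.32, 6.47 and 7.96 FPKM after I13. It was the steadiest gene of the family, and although each I13 sample exceeded the control of its number, the ranges overlapped. Its log2 fold change of 0.16 had a 95% interval of -0.13 to 0.45 (adjusted p = 0.52 from limma). Fosl2 had 6.11, 3.86 and 5.65 FPKM in the controls and 3.82, 3.88 and 6.65 FPKM after I13. Its lowest and highest values were both in I13 samples, and the same-numbered pairs differed by -0.67, 0.008 and 0.23 on the log2 scale. The log2 fold change was -0.14 (95% interval -0.76 to 0.47, adjusted p = 0.803 from limma), and it was 0.12 with the block and without replicate 1.

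Junb carried nearly all of the Jun family signal and was higher after I13 in every pair, by amounts that differed between pairs. It had 35.8, 14.7 and 19.1 FPKM in control replicates 1, 2 and 3 and 38.1, 23.2 and 37.0 FPKM in the I13 replicates. Control replicate 1 was nearly as high as the highest I13 samples, which made the groups overlap. The pairs differed by 0.092, 0.65 and 0.95 on the log2 scale. The means were 23.2 ± 11.1 and 32.8 ± 8.30 FPKM (SD, n = 3 each), which limma estimated as a log2 fold change of 0.56 (SE 0.34, 95% interval -0.23 to 1.36). The adjusted p from limma was 0.407. With the block the standard error was 0.17 and the adjusted p from limma 0.105. With the block and voom the adjusted p was 0.0433, but the log2 fold change of 0.55 stayed under the threshold of 0.58, so Junb was not called in any of these fits. Without control replicate 1 the log2 fold change was 0.93, and without control replicate 2 it was 0.29.

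Jun, the prototype of the family and the partner that JNK kinases phosphorylate, showed both the greatest log2 fold change and the widest spread among the 6 genes tested. Its levels were 1.34, 0.302 and 0.658 FPKM in the controls and 0.836, 1.37 and 2.15 FPKM after I13. The highest control was 4.45 times the lowest. In replicate 1 the I13 sample was below its control, while in replicates 2 and 3 it was above, with pair differences of -0.63, 1.86 and 1.57 on the log2 scale. The log2 fold change was 0.94 (SE 0.52, 95% interval -0.30 to 2.17, adjusted p = 0.378 from limma). The block did not narrow it, with an SE of 0.52 and an adjusted p from limma of 0.294. Without control replicate 2 the log2 fold change was 0.48.

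Jund, the third Jun gene, was barely covered. Its fragments numbered 5, 4 and 12 in the controls and 7, 8 and 22 after I13, in replicate order, on a gene length of 1668 bases recovered from the values. Its FPKM ran from 0.136 to 0.408 in the controls and from 0.238 to 0.753 after I13. Replicate 3 was the highest of its group in both conditions, and each I13 sample exceeded the control of its number. The summed fragments were 21 (exact Poisson 95% interval 13 to 32.1) and 37 (26.1 to 51.0), and these intervals overlap. The two-sided exact permutation test gave p = 0.4.

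Batf, a bZIP protein without a transactivation domain that pairs with Jun proteins and works with IRF factors in lymphocytes, was the second most abundant of the genes. The controls were almost equal at 14.4, 14.7 and 14.9 FPKM, while the I13 samples had 13.8, 12.9 and 21.7 FPKM. I13 replicates 1 and 2 were below every control and I13 replicate 3 was above every control. The log2 fold change was 0.096 (95% interval -0.36 to 0.55, adjusted p = 0.82 from limma), and it was -0.14 without I13 replicate 3.

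Egr1, a zinc finger factor that serum induces together with Fos, and Atf3, a stress-induced bZIP repressor, were close to the limit of detection. Egr1 had 11, 1 and 4 fragments in the controls and 4, 2 and 3 fragments after I13. Of its 16 control fragments (exact Poisson 95% interval 9.15 to 26.0), most were in replicate 1, and the 9 fragments after I13 have an interval of 4.12 to 17.1 that overlaps it. The two-sided exact permutation test gave p = 0.7. Atf3 was listed at 0 in every sample except I13 replicate 3, where it rested on 1 fragment. A count of 0 in a library allows up to 3 fragments, so no change of Atf3 was detectable at this depth.

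Of the 10 genes, 6 had a mean of at least 0.5 FPKM and were tested in the fit over 12163 genes, and 4 (Jund, Fosb, Egr1 and Atf3) were not. A gene was called when its adjusted p was below 0.05 and its log2 fold change 0.58 or more in either direction. Unblocked limma called 0 of the 6, against 0.0411% of all genes tested (0.0329% higher and 0.00822% lower). Limma with the replicate block again called 0 of the 6, against 1.89% of all genes (1.36% higher and 0.526% lower). With the block and voom 1 of the 6 was called, Fos, against 4.14% of all genes (3.08% higher). At an unadjusted p below 0.05 in limma there was 1 gene of 6 without the block, Fos, against 18.6% of all genes (7.79% higher). With the block there were 2 of 6, Fos and Junb, both higher, against 28% of all genes (13.2% higher). In 3 of the 6 genes, Junb, Fosl1 and Fos, all 3 pairs were higher after I13, which held for 24.1% of all genes tested. In 0 of the 6 were all 3 pairs lower, against 27.3%. A log2 fold change of 0.58 or more, whatever its p, was seen for Fos and Jun and for 6.08% of all genes. In 1 of the 6, Fos, the groups did not overlap in that direction, against 9.82% of all genes. The median log2 fold change of the 6 genes was 0.36, beside -0.005 over all genes tested.

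**Figure D2:**
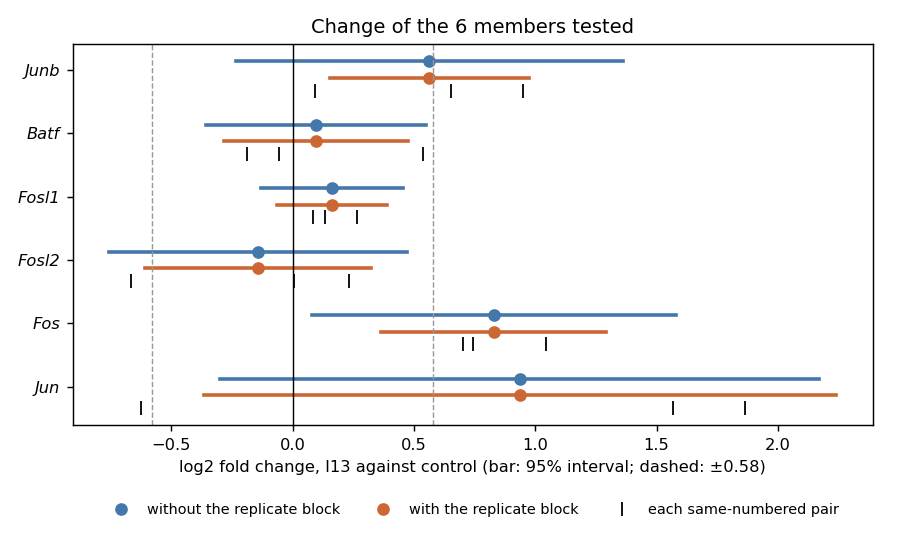
Log2 fold change (horizontal axis, I13 against control) of the 6 genes tested, with 95% intervals from limma without the replicate block (blue) and with it (orange), and black ticks for the differences of the 3 same-numbered pairs. The interval of Fos lies above 0 in both fits, that of Junb only with the block (0.15 to 0.98), and the ticks of Jun fall on both sides of 0.

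Because FPKM is scaled by length, the levels can be added to describe approximately the makeup of the AP-1 transcript pool. The sum of the Jun family was 37.3, 15.2 and 20.2 FPKM in the controls and 39.2, 24.9 and 39.9 FPKM after I13. The sum of the Fos family was 13.6, 10.6 and 13.5 FPKM in the controls and 13.4, 11.9 and 16.6 FPKM after I13. Both sums overlapped between the groups, and two-sided exact permutation tests gave p = 0.2 for the Jun family and p = 0.6 for the Fos family. Junb made up 92.7% to 97.3% of the Jun family sum in every sample. Its share was 95.9% ± 1.20 in the controls and 94.5% ± 2.48 after I13 (SD, n = 3 each, exact permutation p = 0.5). Of the Fos, Jun and Batf sum, the Jun family held 45.4% ± 10.4 in the controls and 53.3% ± 4.93 after I13 (SD, n = 3 each, exact permutation p = 0.3). Junb was 17 to 48.7 times as abundant as Jun across the samples.

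**Figure D3:**
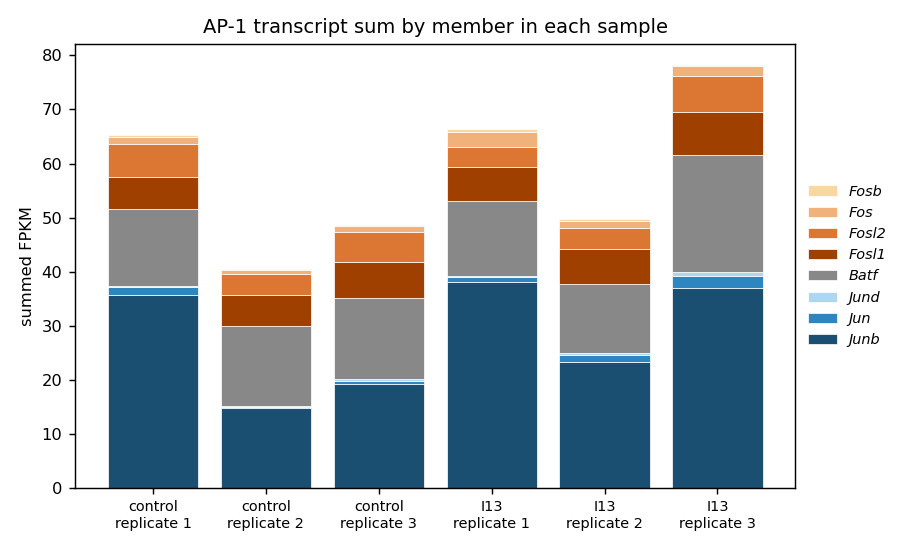
Summed FPKM (vertical axis, from 0) of the 8 Fos, Jun and Batf genes in each of the 6 samples, stacked by gene. Control replicate 1 (65.2 FPKM) is as tall as I13 replicate 1 (66.4 FPKM), control replicate 2 is the lowest (40.5 FPKM) and I13 replicate 3 the highest (78.2 FPKM), and Junb forms the largest block in most samples.

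Single samples tended to be the extreme of their group for several of these genes. Among the 9 genes other than Atf3, control replicate 2 was the lowest control for 8, and control replicate 1 was the highest for 6. After I13 the lowest sample was replicate 1 for 4 genes, replicate 2 for 4 and replicate 3 for 1, and the highest was replicate 1 for 4 and replicate 3 for 5, so replicate 1 stood at either end. The highest control of Junb was 2.43 times the lowest, and over the 9 genes this ratio ran from 1.04 for Batf to 10.9 for Egr1, the latter on 11, 1 and 4 fragments. The 3 genes outside the family whose levels followed those of Junb most closely over the 6 samples were Prkx, Als2cr12 and Tcrg-V7, with Pearson correlations of 0.98 each on the log2(FPKM + 0.1) scale. The points share libraries, and 72 of the other genes tested had a correlation above 0.9.

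The other dimer partners of AP-1 and related bZIP factors were not called in either fit. Of 22 names, 20 were listed and 18 tested, with a median log2 fold change of -0.06. Without the block, 1 of the 18 had an unadjusted p below 0.05 in limma, against 18.6% of all genes. With the block 4 were higher and 1 lower at that p, against 13.2% and 14.8% of all genes. The most abundant was Atf4, the effector of the integrated stress response, with 167 to 377 FPKM in the controls and 125 to 252 FPKM after I13. In 2 of the 18 all I13 samples were below all controls, against 15.4% of all genes, and in 0 all were above, against 9.82%. The 2 were Mafg, a small Maf protein that dimerizes with NF-E2 factors, and Cebpg, a C/EBP factor without an activation domain. Mafg had 18.5, 22.7 and 19.9 FPKM in the controls and 14.4, 16.8 and 17.9 FPKM after I13, and limma estimated -0.32 on the log2 scale (SE 0.12, adjusted p 0.237). The change of Cebpg was smaller, at -0.21 (adjusted p = 0.326 from limma). Jdp2, a repressor that competes with Fos for Jun, had a log2 fold change of -1.13 with an SE of 0.57 (adjusted p = 0.333 from limma), and was singled out after its values were seen.

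Other immediate early genes lay mostly on the higher side after I13. Of 34 names, 25 were listed and 19 tested, and 17 of the 19 had a log2 fold change above 0, beside 49.2% of all genes. Their median was 0.49. None was called without the block, where 6, all higher, had an unadjusted p below 0.05 in limma, against 7.79% of all genes. With it 3 were called, all of them higher, which is 15.8% of those tested against 1.36% of all genes called higher. These were Ier3, Ier5 and Cited2. When the pair numbered 1 was left out, 2 genes of this list were called with the block, and 0 when pair 2 or 3 was. Ier3, a stress-responsive regulator of cell survival, had 45.1, 13.6 and 37.9 FPKM in the controls and 81.8, 34.3 and 78.1 FPKM after I13. Each I13 sample was far above its own control although the ranges overlapped, and the log2 fold change was 1.07 (limma adjusted p 0.307 unblocked and 0.0313 blocked). Ier5, a regulator of heat shock factor activity, had 7.82, 5.26 and 8.66 FPKM in the controls and 11.8, 9.56 and 13.7 FPKM after I13, with no overlap. Its log2 fold change was 0.70 (limma adjusted p 0.165 unblocked and 0.0384 blocked). Cited2, a coregulator that binds CBP and p300, was one of the most abundant of these transcripts at 148 ± 20.1 FPKM in the controls and 235 ± 31.7 FPKM after I13 (SD, n = 3 each). Its log2 fold change was 0.67 (limma adjusted p 0.109 unblocked and 0.0384 blocked).

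Among the 19 other immediate early genes tested, all I13 samples were above all controls in 6, against 9.82% of all genes. In 0 all were below, against 15.4%. With the block and voom 6 were called, all higher, which is 31.6% of those tested against 3.08% of all genes called higher. Dusp1 and Btg2 showed groups without overlap and were called with the block and voom, but not with the block alone. Dusp1, the phosphatase that switches off JNK and p38, had 1.88, 1.39 and 1.89 FPKM in the controls and 3.56, 3.14 and 2.67 FPKM after I13. Its log2 fold change was 0.83 (SE 0.18), with an adjusted p from limma of 0.113, of 0.0635 with the block and of 0.0222 with the block and voom. Btg2, an antiproliferative gene, had 1.80 to 4.70 FPKM in the controls and 5.15 to 7.39 FPKM after I13, a log2 fold change of 0.90 (limma adjusted p 0.221 unblocked, 0.084 blocked and 0.0295 blocked with voom). Against these, Ier2 and Egr3 had log2 fold changes of 0.16 and -0.03, with adjusted p from limma of 0.726 and 0.969, and Egr2 had 0.72 with an SE of 0.52 (adjusted p = 0.495 from limma). These 3 genes were named after their values were seen.

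The kinases and transcription factors that act upstream of immediate early genes were mostly not called. Of 32 names, 30 were listed and 29 tested, with a median log2 fold change of -0.057. The fit without the block called none of them (4 higher and 6 lower at an unadjusted p below 0.05 in limma, against 7.79% and 10.8% of all genes). The fit with the block called 1, Map2k7, a kinase that activates JNK, which is 3.45% of those tested against 1.89% of all genes (0.526% lower). Map2k7 had 12.8, 14.8 and 14.1 FPKM in the controls and 8.57, 9.21 and 9.80 FPKM after I13. All I13 samples were below all controls, and the log2 fold change was -0.59 (SE 0.10, limma adjusted p 0.0989 unblocked and 0.0392 blocked). This is close to the fold change threshold, and the call was lost whenever both samples of replicate 1, 2 or 3 were left out of the blocked fit. Rps6ka3, which encodes the ERK-activated kinase RSK2, had 12.3 ± 0.203 FPKM in the controls and 16.4 ± 1.5 FPKM after I13 (SD, n = 3 each), which limma estimated as a log2 fold change of 0.41 (adjusted p = 0.12 from limma). Elk3, a ternary complex factor that partners SRF, had a log2 fold change of -0.36 (adjusted p = 0.158 from limma). In this list the groups did not overlap for 5 genes higher and 8 genes lower after I13, beside 9.82% and 15.4% of all genes.

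Among 12 tested genes of 13 names that govern the turnover or repression of these factors, the fit with the block called 2, of which Fbxw7 is described here. The fit without it called 0 (2 higher and 1 lower at an unadjusted p below 0.05 in limma, against 7.79% and 10.8% of all genes). The share called with the block was 16.7%, against 1.89% of all genes, and no gene of the list was called when both samples of any 1 number were left out. Fbxw7, the ubiquitin ligase subunit that marks Jun and Myc for degradation, had 15.7, 9.14 and 15.3 FPKM in the controls and 22.3, 17 and 21.9 FPKM after I13. The groups did not overlap, and its log2 fold change was 0.64 (limma adjusted p 0.205 unblocked and 0.0477 blocked). Nab1, a corepressor of Egr factors, had 13.3 ± 2.37 and 18.5 ± 1.23 FPKM (SD, n = 3 each), which limma estimated as a log2 fold change of 0.48 (limma adjusted p 0.158 unblocked and 0.071 blocked).

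Genes known as AP-1 targets in other systems included the greatest log2 fold change in the 5 related lists, that of Spp1. Of 26 names, 22 were listed and 13 tested, with a median log2 fold change of 0.54. Of the 13, 12 had a log2 fold change above 0, beside 49.2% of all genes. The fit without the block called none (3 higher at an unadjusted p below 0.05 in limma, against 7.79% of all genes), and with the block 4 were called, all higher, which is 30.8% of those tested against 1.36% of all genes called higher. Without replicate 1 the blocked fit called 3 genes of the list, and without replicate 2 or 3 it called 0. Spp1, the secreted phosphoprotein osteopontin, had 115, 26.4 and 172 FPKM in the controls and 476, 290 and 895 FPKM after I13. The groups did not overlap, and the log2 fold change was 2.63 (SE 0.71, limma adjusted p 0.138 unblocked and 0.0313 blocked). The inflammatory cytokine genes Il6 and Tnf and the chemokine gene Ccl3 were called only with the block, with log2 fold changes of 1.40, 0.80 and 1.38 and adjusted p from limma of 0.0354, 0.0322 and 0.0478. Their values differed strongly by replicate number. Ccl3 had 3.02, 0.444 and 9.41 FPKM in the controls and 4.96, 1.79 and 29.8 FPKM after I13. Il6 had 2.72, 2.55 and 8.58 FPKM in the controls and 7.38, 5.31 and 29.2 FPKM after I13. For both genes replicate 3 was the highest in either group.

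In 3 of the 13 AP-1 target genes tested all I13 samples were above all controls, against 9.82% of all genes. In 0 all were below, against 15.4%. Besides Spp1, these were Hbegf, an EGF family growth factor, and Mt1, a metallothionein, with smaller differences. Hbegf had a log2 fold change of 0.66 (limma adjusted p 0.129 unblocked and 0.0817 blocked) and Mt1 one of 0.28 (limma adjusted p 0.218 unblocked and 0.0793 blocked). Mmp9, a matrix metalloprotease and a frequently cited AP-1 target that was named after its values were seen, had a log2 fold change of -0.48 (adjusted p = 0.419 from limma). AP-1 binding was not measured, so the list says only which transcripts differed. Adgre1, the macrophage marker given above, moved with these secreted and inflammatory genes, at 18.1 to 40.1 FPKM in the controls and 44.1 to 76.7 FPKM after I13, and its part in their change was not tested.

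**Figure D4:**
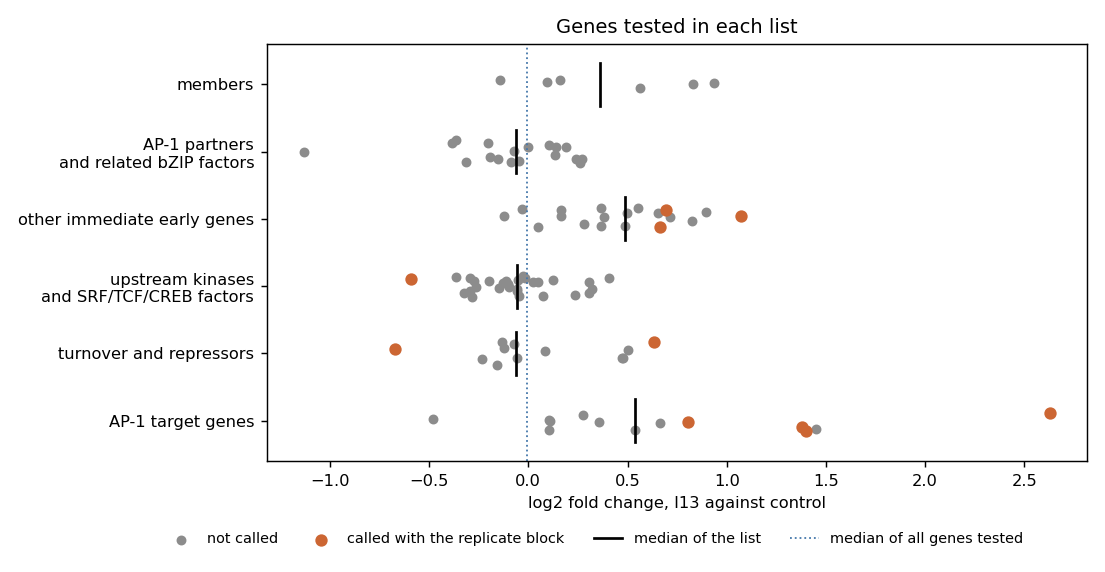
Log2 fold change (horizontal axis, I13 against control) of every gene tested in the 10-gene family and in 5 related lists, 1 point a gene, with orange points for genes called with the replicate block and black bars for the median of each list. The medians of the other immediate early genes (0.49) and of the AP-1 target genes (0.54) lie to the right of that of all genes tested (-0.005), and no gene of the family itself is called.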

How the data were processed

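mRNA was made into stranded libraries and sequenced in 6 samples, and the authors deposited FPKM values of 22413 genes for each sample without pooling of replicates. The submitters' processing notes name Trimmomatic, HISAT2, Cufflinks, HTSeq and hg38 without versions or roles, although the identifiers are mouse genes. How fragments shared by overlapping genes were assigned is not given in the sources used here. The available reference was human, so no mouse sequence or coordinate is given.

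Groups and replicate numbers came from the sample titles, and 0 columns were left without a sample. log2(FPKM + 0.1) was fitted with limma 3.58.1 in R 4.3.3 (eBayes with a trend) in the 12163 genes with a mean of at least 0.5 FPKM. Calls needed a p below 0.05 after Benjamini-Hochberg adjustment across these genes, and a log2 fold change of 0.58 or more in either direction. Whole fragments and a whole length that give the FPKM of all 6 samples were found for every gene, within at most 0.03 fragments, and the smallest solution was used for counting intervals and voom. The fits and this step were tested on simulated data. Single values were compared by two-sided exact permutation tests, which for 3 against 3 cannot go below p = 0.1 (scipy 1.17.1).

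Deviations of same-numbered samples from their group means correlated across genes at 0.145, 0.301 and 0.219, all above 0.1. Those of samples with different numbers correlated at -0.258 to 0.05. Deviations within a group cancel out, so positive correlations of same-numbered samples push the others down, and this contrast is partly fixed in advance. Because same-numbered samples correlated positively, they were treated as pairs in the replicate block, which is given where it changes a call. The pairing rests on the label numbers and this check. The fit without the block and the permutation tests did not pair the samples. Besides all 10 factors, the text names genes of 5 related lists and 2 marker lists that were called in either fit, or that were among the 3 largest changes of a list without overlap between groups. The 10 genes and the lists were chosen with earlier results of these data known, so they are not independent of them. 1 gene that this rule names is not reported here. Figures were drawn with matplotlib 3.10.9.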

Additional observations from a re-analysis of the deposited data

How the results depend on the processing

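Of the fits tried, only the replicate block with voom called a gene of the AP-1 and immediate early family, Fos (1 of the 6 tested). Among the 6 tested genes the direction changed 3 times. Batf was -0.136 without I13 replicate 3 and -0.123 with the block and without replicate 3, and Fosl2 was 0.12 with the block and without replicate 1. Egr1, which was not tested, was 0.085 on the log2 scale without control replicate 1, against -0.206 with it. With the replicate block, which pairs the samples by number, limma called 166 genes higher and 64 lower, against 4 and 1 without it, and with voom 375 and 128. The block called 3 other immediate early genes, 1 upstream gene, 2 turnover genes and 4 AP-1 target genes, and with voom 6, 1, 2 and 5, against 0 in each list without it. Beside these and the marker genes given above, the block changed no call of a named gene. When both samples of a number were left out of the blocked fit, 0 to 78 genes were called higher and 0 to 5 lower, 0 to 2 of the other immediate early genes, 0 to 3 of the AP-1 targets, and 0 upstream and 0 turnover genes each time. Leaving out any 1 sample without the block, limma called 0 genes in either direction, with 660 to 1285 higher and 818 to 1197 lower at an unadjusted p below 0.05. With a pseudocount of 0.01 or median-ratio scaling 2 genes were called higher and 0 lower, and without a filter or without a trend 3 were lower. The causes were not tested, and the fits that left out samples also had fewer samples. Without 1 sample, the log2 fold change ran from 0.55 to 1.06 for Fos, from 0.29 to 0.93 for Junb, from -0.136 to 0.237 for Batf and from 0.48 to 1.40 for Jun. Counting error limits Jund, Egr1 and Atf3. For Fosb the exact permutation test could not go below p = 0.1, and limma without the filter gave an adjusted p of 0.545.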
